A study of Arabidopsis thaliana with 9 samples.

Results

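Arabidopsis PDC2 (AT5G54960), the lactate dehydrogenase gene AT4G17260 and HRA1 (AT3G10040) are genes of fermentation and of the response to low oxygen. They were picked as named genes and make up 3 of the 22746 probe sets tested. Each was read by 1 probe set of the array.

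When oxygen is short, respiration slows and plant cells regenerate NAD+ by fermentation. PDC2 encodes a pyruvate decarboxylase, which turns pyruvate into acetaldehyde for alcohol dehydrogenase, and AT4G17260 encodes the enzyme that turns pyruvate into lactate. HRA1 encodes a trihelix transcription factor that is itself induced by low oxygen and restrains RAP2.12, a factor that turns on the fermentation genes. In pollen of tobacco and petunia, ethanol fermentation is known to run also when oxygen is present, and the acetaldehyde can be passed on to acetyl-CoA through a route called the pyruvate dehydrogenase bypass.

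All plants carried the LAT52-HF-RPL18 transgene, which makes a tagged ribosomal protein L18 under the pollen promoter LAT52, and no group lacked it. The arrays measured mRNA of tagged polysomes, that is, mRNA loaded with several ribosomes. The 9 arrays were 3 biological replicates each of pollen tubes grown in self-pollinated floral material of stage 14 (in vivo), pollen tubes grown in culture (in vitro) and floral buds of stage 11 to 12 (bud). The labels name the tissue as pollen tube in vivo and in vitro, and as pollen grains and tubes in bud. The series text describes the bud material as unpollinated styles, while the sample labels give floral buds, and the labels were followed here; every bud value carries this doubt. In vivo and bud samples differ in stage as well as in pollination, and these cannot be told apart.

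The deposited values are signals scaled within each array. The median signal was 174 to 187 on the in vivo arrays and 175 to 196 on the bud arrays. On in vitro replicates 1, 2 and 3 it was 69.6, 68.6 and 112. A listed gene is called measured here if a probe set with 1 named gene matched it, and 13513 probe sets had 1 named gene. Whether the other listed genes were on the array was not tested. Summed over the 11 measured of 12 pollen tube markers, the signal was 17071 to 38802 in vivo, 513382 to 810341 in vitro and 2425 to 5348 in bud. Over the 4 measured of 11 green tissue markers it was 30032 to 45862 in vivo, 286 to 602 in vitro and 31192 to 56986 in bud. The 3 measured of 11 pistil markers summed to 2029 to 2621 in vivo, 92.01 to 279 in vitro and 1857 to 2791 in bud. The 4 measured of 12 tapetum markers summed to 517 to 903 in vivo, 108 to 808 in vitro and 6911 to 9556 in bud. The in vivo tapetum sum was carried by EMS1, which averaged 665 in vivo, 115 in vitro and 718 in bud. A9, SHT and AMS averaged 14.8, 14.6 and 26.3 in vivo, and 3782, 3202 and 755 in bud. No marker was listed at 0. Against the labelled tissue, green tissue markers were bright in vivo and in bud, and their sum was lower on every in vitro array. The pistil sum was also lower there but was carried by FER, a receptor kinase, which averaged 1844 in vivo, 8.89 in vitro and 1811 in bud. NGA1 averaged 250.3 in vivo, 11.5 in vitro and 235 in bud. SPT, a transcription factor, averaged 195 in vivo, 140.4 in vitro and 375 in bud, and its in vivo and in vitro arrays overlapped (adjusted p = 0.259). A lower signal can come, among other causes, from fewer cells of a type or from less polysomal mRNA per cell, and these cannot be told apart.

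AT4G17260, the lactate dehydrogenase gene, was bright in vivo and in bud and dim in vitro. Its signals were 887, 970 and 928 on the in vivo arrays, 43.4, 61.1 and 83.4 on the in vitro arrays, and 826, 932 and 780 on the bud arrays. The in vitro arrays lay far below all the others, while the in vivo and bud arrays overlapped. The signal averaged 928 ± 41.5 in vivo, 62.6 ± 20.0 in vitro and 846 ± 78.0 in bud (SD, n = 3 each). Its spread in vivo was 4.47% of the mean, the smallest among the 3 genes in any group. All 3 in vitro signals were below the median of their own array, at 0.624 to 0.891 of it, against 4.75 to 5.58 array medians in vivo and 4.10 to 4.76 in bud.

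PDC2 was also lowest in vitro, with a wide spread in every group. The signals were 1005, 825 and 378 in vivo, 210, 192 and 69.5 in vitro, and 619, 782 and 332 in bud. No in vitro array reached the in vivo or bud arrays, and the in vivo and bud arrays overlapped. Replicate 3 was the lowest in all 3 groups, although replicate numbers did not otherwise go with shared deviations between groups. The mean was 736 ± 323 in vivo, 157 ± 76.5 in vitro and 578 ± 228 in bud (SD, n = 3 each). Set against the median of its own array, PDC2 stood at 5.39, 4.75 and 2.02 in vivo, at 3.02, 2.80 and 0.623 in vitro, and at 3.53, 4.00 and 1.74 in bud. On this scale the in vitro and bud arrays overlapped, and so did the in vivo and in vitro arrays.

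HRA1 was dim on every array, below the array median on all 9. Its signals were 71.3, 42.0 and 42.5 in vivo, 25.7, 36.7 and 12.7 in vitro, and 80.1, 75.8 and 125.6 in bud. The groups did not overlap, with bud highest and in vitro lowest. The mean was 51.9 ± 16.8 in vivo, 25.1 ± 12.0 in vitro and 93.8 ± 27.6 in bud (SD, n = 3 each). Relative to the array median the order was different, with 0.227 to 0.382 in vivo, 0.114 to 0.535 in vitro and 0.388 to 0.660 in bud. On this scale the in vitro arrays overlapped both the in vivo and the bud arrays. A brightness filter, which asks that a gene's highest group mean exceed the median over probe sets, was passed by PDC2 and AT4G17260 and not by HRA1.

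**Figure D1:**
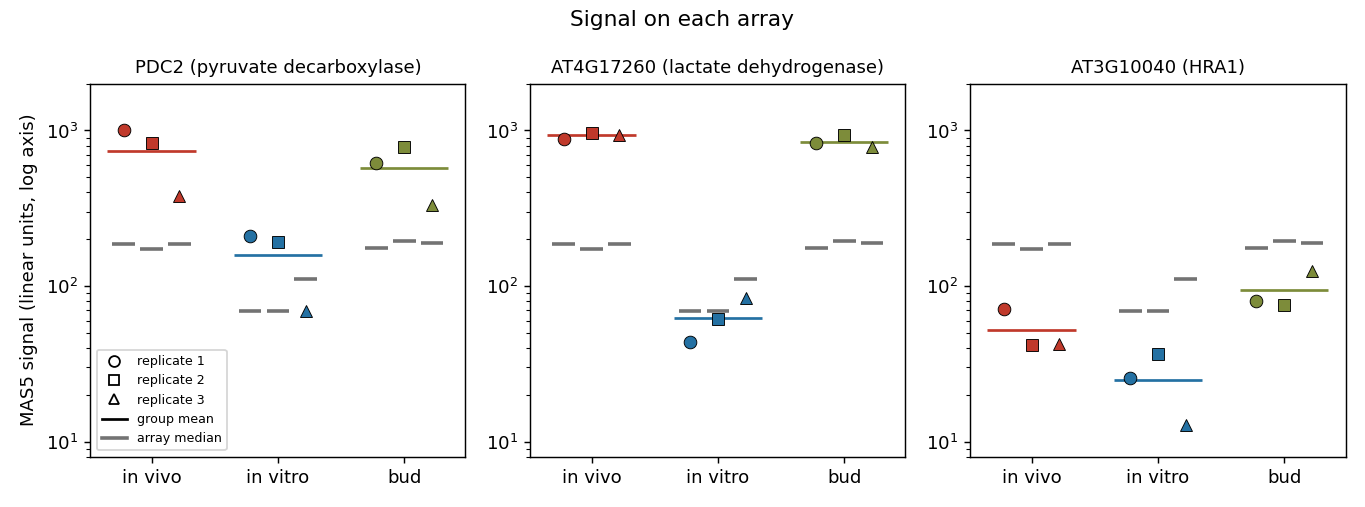
MAS5 signal (log axis) of PDC2, AT4G17260 and HRA1 on each of the 9 arrays, in vivo, in vitro and bud. Symbols are arrays, coloured lines are means of 3 arrays and grey ticks are the median of each array; AT4G17260 falls below the array median in vitro, PDC2 does so on in vitro replicate 3 alone, and HRA1 lies below it throughout.

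In vivo samples were set against in vitro samples to see how polysomal mRNA of tubes grown in the flower differs from that of cultured tubes. As deposited, both fermentation enzyme genes were higher in vivo, and HRA1 did not pass the test; the call of PDC2 was lost under both other scalings of the arrays, by quantile normalization (adjusted p = 0.217) and to equal medians (adjusted p = 0.158). Folds are on the scale of log2(signal + 16), which understates changes of dim genes, and a gene was called at an adjusted p under 0.05 in limma over all probe sets. AT4G17260 was higher in vivo by a log2 fold of 3.62 ± 0.31 (SE, adjusted p = 2e-06), or 12.3-fold. PDC2 was higher by 2.13 ± 0.51 (SE, adjusted p = 0.00345), or 4.38-fold. HRA1 had a log2 fold of 0.74, with an 95% interval of -0.046 to 1.53 and adjusted p = 0.0963, though all its in vivo arrays were above its in vitro arrays. Of all probe sets, 59.3% were called in this comparison, 39.4% as higher in vivo and 20.0% as lower. The arrays did not overlap for 63.5%, and did so with in vivo higher for 40.7%. The 2 calls among 3 genes are near that background. In the same comparison all 4 green tissue markers were higher in vivo, by log2 folds of 5.46 to 8.05, as were FER (6.24) and NGA1 (3.28), and all 11 pollen tube markers were lower, with log2 folds of -6.90 to -3.20. The part of other tissues in the higher PDC2 and AT4G17260 signals was not tested.

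Cultured tubes were next set against buds. All 3 genes fell in vitro as the values were deposited, when 60.9% of all probe sets were called, 20.4% as higher and 40.5% as lower. AT4G17260 fell by 3.48 ± 0.31 on the log2 scale (SE, adjusted p = 2.15e-06), an 11.2-fold lower level. PDC2 fell by 1.82 ± 0.51 (SE, adjusted p = 0.00859), 3.53-fold lower, and HRA1 by 1.43 ± 0.36 (SE, adjusted p = 0.00448), 2.70-fold lower. Among all probe sets 12.8% had a lower fold than AT4G17260, 30.9% a lower one than PDC2 and 36.0% a lower one than HRA1. For all 3 genes the in vitro arrays were below the bud arrays, a separation seen in 41.1% of probe sets, or in 63.8% when either direction is counted. The green tissue and pistil marker sums given above were lower in vitro too, and their part in these differences was not tested.

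Between in vivo and bud none of the 3 genes was called, in a comparison where limma called 4.02% of all probe sets (2.15% higher, 1.87% lower) and 11.7% had an unadjusted p under 0.05. The log2 fold was 0.31 for PDC2, with an interval of -0.80 to 1.43 (adjusted p = 0.977), and 0.13 for AT4G17260, with an interval of -0.55 to 0.82 (adjusted p = 0.993). HRA1 stood at -0.69, with an interval of -1.48 to 0.096 and adjusted p = 0.550 (unadjusted p = 0.0795). Its in vivo arrays were all below its bud arrays, as was so for 10.9% of all probe sets, out of 22.0% whose arrays did not overlap in either direction. The interval of AT4G17260 leaves out a change of more than 1 log2 unit either way, while that of PDC2 leaves out such a fall but not such a rise.

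The in vitro calls of PDC2 and HRA1 depended on how the arrays were normalized, and those of AT4G17260 did not, although its folds shrank by about 1 log2 unit. The in vitro arrays had lower medians than the others, and across all probe sets the median log2 fold between in vitro and bud was -0.42 as deposited, 0.22 after quantile normalization and 0.44 with equal array medians. AT4G17260 fell under all 3 scalings, with log2 folds of -2.57 (adjusted p = 5.09e-05) after quantile normalization and -2.44 (adjusted p = 4.93e-05) with equal medians. PDC2 stood at -0.63 (adjusted p = 0.413) and -0.69 (adjusted p = 0.337) in these settings, and HRA1 at -0.80 (adjusted p = 0.130) and -0.55 (adjusted p = 0.282). Against the median of all probe sets as deposited, the fold was -3.06 for AT4G17260, -1.39 for PDC2 and -1.01 for HRA1. That median includes dim probe sets. Among the 13380 that passed the brightness filter, as PDC2 and AT4G17260 did, it was -1.71, near the PDC2 fold of -1.82. Between in vivo and in vitro, PDC2 was at 0.96 (adjusted p = 0.217) and 1.03 (adjusted p = 0.158), HRA1 at 0.12 and -0.083, and AT4G17260 at 2.72 and 2.61, the last still called in both. The direction of all calls between in vitro and bud moved likewise, with 4645 higher and 9214 lower as deposited, 6806 and 6216 after quantile normalization, and 7877 and 6115 with equal medians. Between in vivo and in vitro the split was 8953 higher and 4542 lower, 5970 and 6843, and 6034 and 7818 in the same order.

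**Figure D2:**
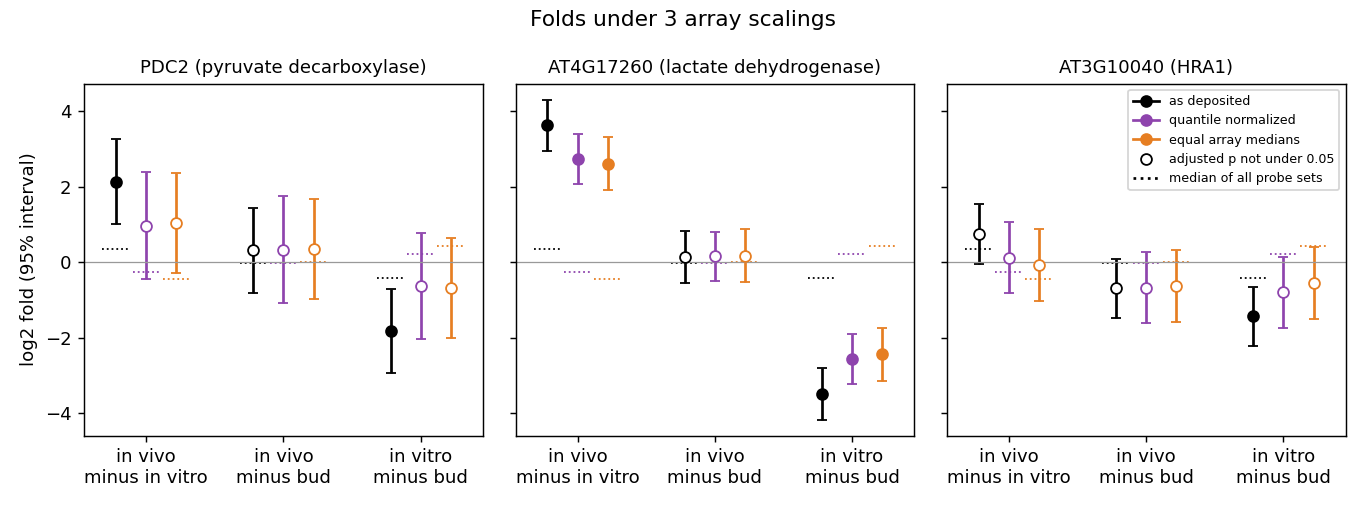
Log2 fold of each gene in the 3 comparisons (bars, 95% interval of the limma fit) with arrays as deposited, quantile normalized or at equal medians. Filled points have an adjusted p under 0.05 and dotted ticks are the median fold of all probe sets; AT4G17260 is called in vitro under all 3 scalings, PDC2 and HRA1 only as deposited.

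Ratios of 2 of these genes on the same array, added after the values were seen, do not depend on a scaling factor of the array. Relative to the bud mean, the log2 ratio of PDC2 over AT4G17260 was 0.81, 0.40 and -0.66 in vivo, 2.91, 2.28 and 0.37 in vitro, and 0.22, 0.38 and -0.60 in bud. In vitro replicates 1 and 2 were above all other arrays, and in vitro replicate 3 lay within the range of the bud arrays. The mean difference between in vitro and bud was 1.85 (exact permutation test, two-sided p = 0.2). PDC2 over HRA1 differed by 0.048 between in vitro and bud (exact permutation p = 0.9) and by 1.13 between in vivo and in vitro, where the arrays did not overlap (exact permutation p = 0.1). AT4G17260 over HRA1 was higher in vivo than in vitro by 2.80 and than in bud by 1.00 without overlap (exact permutation p = 0.1 for each). With 3 arrays against 3 the smallest p is 0.1, and none of 9 such comparisons was below 0.3 after Benjamini-Hochberg adjustment.

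**Figure D3:**
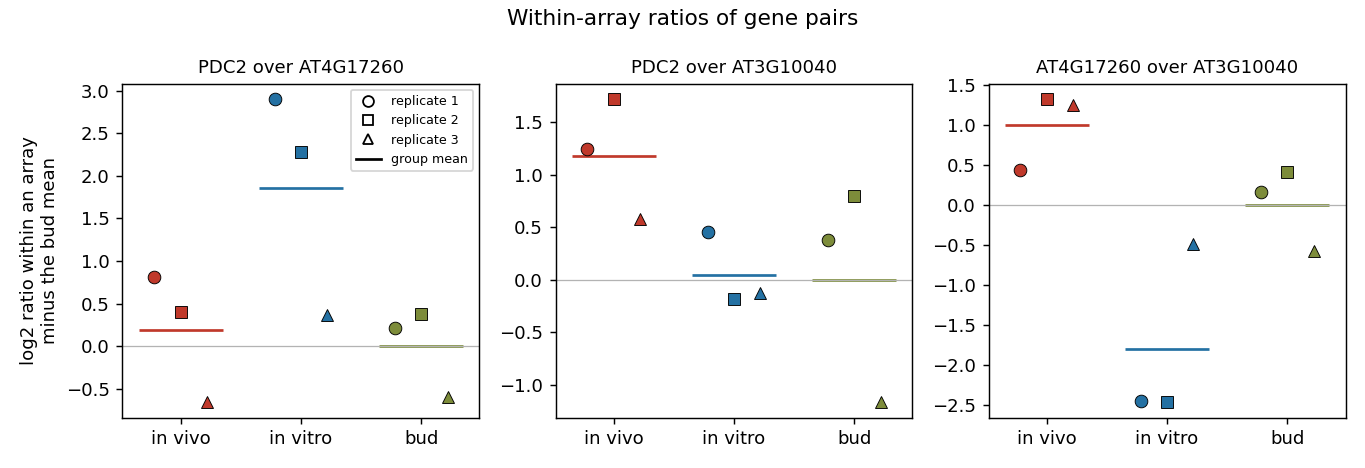
Log2 ratio of the signals of 2 genes within each array, minus the mean of the 3 bud arrays, for the in vivo, in vitro and bud groups. Symbols are replicates and lines are group means; in vitro replicate 3 is apart from replicates 1 and 2 in both ratios with AT4G17260.

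The rest of the pathway was read from gene lists. Of 8 fermentation enzymes the gene table named probe sets for PDC2 and AT4G17260, and of 16 oxygen sensing regulators for HRA1. Of 10 genes for pyruvate dehydrogenase and its bypass, 6 were measured. All 6 fell in vitro against bud, with a median log2 fold of -1.70 against -0.42 for all probe sets, and all 6 were higher in vivo than in vitro, with a median of 1.96 against 0.36. Of all probe sets, 40.5% were called lower and 39.4% higher in these comparisons as deposited. All 6 genes passed the brightness filter. Among the 13380 probe sets that passed it, the median was -1.71 in vitro against bud, with 8112 called lower. It was 1.61 in vivo against in vitro, with 7905 called higher. The list median of -1.70 is thus near that of bright probe sets. Under each of the other scalings, 3 of the 6 were called higher in vivo than in vitro. Of all 22746 probe sets, 5970 were so called after quantile normalization and 6034 with equal medians. None of the 6 was called between in vivo and bud (median 0.11, against -0.017 for all), where 4.02% of all probe sets were called.

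Within this list the largest fall in vitro was that of ALDH2C4 (AT3G24503), an aldehyde dehydrogenase whose part in the bypass was not tested here. Its signals were 721, 643 and 1095 in vivo, 39.9, 77.0 and 10.1 in vitro and 567, 809 and 800 in bud. Its log2 fold in vitro was -3.83 ± 0.46 (SE, adjusted p = 2e-05). ACS (AT5G36880), acetyl-CoA synthetase and the last step of the bypass, kept more of its signal, with 1730, 1389 and 1541 in vivo, 769, 812 and 471 in vitro and 1175, 1234 and 1400 in bud. Its log2 fold was -0.91 ± 0.32 (SE, adjusted p = 0.0285) as deposited, -0.31 after quantile normalization and 0.27 with equal medians, neither of them called. The E2 subunit genes of pyruvate dehydrogenase AT3G13930, AT3G52200 (LTA3) and AT1G54220 fell by 2.45, 1.79 and 1.40, and MAB1 (AT5G50850), its E1 beta subunit, fell by 1.61. After quantile normalization 3 of the 6 fell, ALDH2C4, AT3G13930 and MAB1, and with equal medians 2, ALDH2C4 and AT3G13930. Of all 22746 probe sets, 6216 and 6115 were called lower in these settings.

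Of 32 genes listed as induced by low oxygen, 17 were measured, and 8 of these passed the brightness filter. In vitro 3 rose, 9 fell and 5 were not called against bud, with a median of -1.53. Of all probe sets, 20.4% were called higher and 40.5% lower, so that the 3 rises are near the background. The largest fall was that of AT5G45960, with 1337, 798 and 644 in vivo, 9.2, 6.6 and 22.1 in vitro and 809, 1247 and 1202 in bud, and a log2 fold of -5.28 ± 0.38 (SE, adjusted p = 4.65e-07). AT4G27450 and AT4G17670 fell by 4.33 and 3.37. CML38 (AT1G76650), a calmodulin-like protein, fell by 2.55, and HRU1 (AT3G03270), a universal stress protein, fell by 1.69. The log2 folds of the other 4 genes that fell were -2.14 for AT4G33560, -2.05 for AT5G42200, -1.61 for AT5G26200 and -1.53 for AT4G24110. Of these only AT5G42200 passed the brightness filter.

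The list did not move one way. AT3G23170 had signals of 988, 1554 and 1324 in vivo, 13230, 17379 and 36704 in vitro and 1042, 771 and 361 in bud. The in vitro arrays were far above all the others, and its log2 fold against bud was 4.91 ± 0.48 (SE, adjusted p = 4.23e-06). AT2G17850 rose by 1.66 (adjusted p = 0.00514) but did not pass the brightness filter. It averaged 86.3 in vivo, 124 in vitro and 27.9 in bud. AT3G27220 rose as well (adjusted p = 0.00287). These 3 rose also under both other scalings, at log2 folds of 4.39 and 6.10 for AT3G23170, 2.66 and 2.65 for AT2G17850, and 2.46 and 2.64 for AT3G27220 (quantile normalization first). The 9 falls came to 5 after quantile normalization and 6 with equal medians. Of all 22746 probe sets, 6216 and 6115 were called lower in these settings and 6806 and 7877 higher. AT1G19530, AT1G33055, AT4G39675, AT5G10040 and AT5G66985 were dim, with group means between 1.77 and 79.4, and were not called in any comparison.

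In vivo against in vitro, 8 of the 17 were higher, 2 lower (AT3G23170 and AT3G27220) and 7 not called, with a median of 1.07, when 39.4% of all probe sets were called higher and 20.0% lower. After quantile normalization 3 were higher and 3 lower, and with equal medians 5 were higher and 3 lower. Of all 22746 probe sets, 5970 were higher and 6843 lower after quantile normalization, and 6034 and 7818 with equal medians. Against bud, 2 fell in vivo and 15 were not called, with a median of 0.11, when 1.87% of all probe sets were called lower and 2.15% higher. AT4G27450 fell by 1.85 (adjusted p = 0.0227), with 308, 532 and 353 in vivo and 1194, 1182 and 2109 in bud. AT4G33560 fell by 1.89 (adjusted p = 0.0155), with 14.5, 4.1 and 30.5 in vivo and 92.7, 82.6 and 119.1 in bud. AT4G27450 was not called after quantile normalization (-2.10, adjusted p = 0.0509) or with equal medians (-1.81, adjusted p = 0.0862). Neither gene was called after leaving out in vivo replicate 1 or any 1 of the bud arrays.

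**Figure D4:**
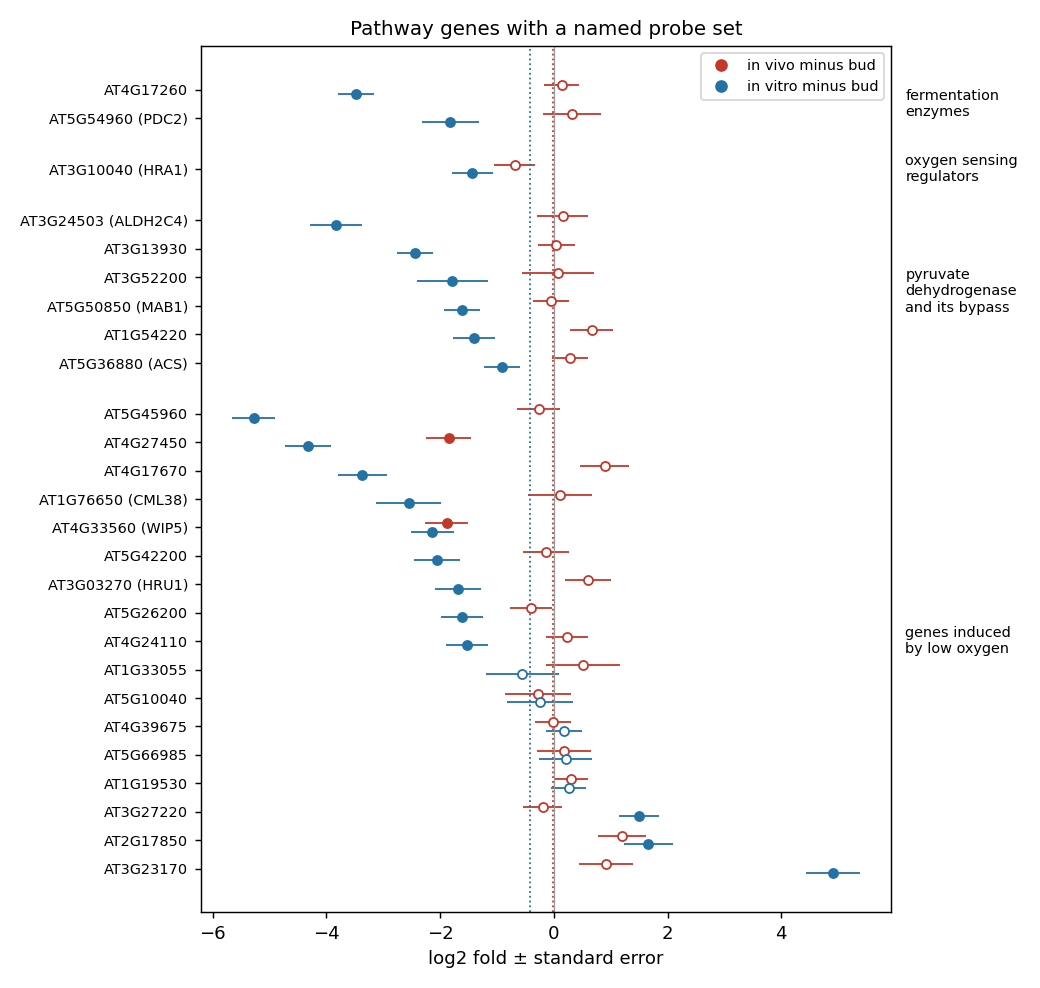
Log2 folds (± SE of the limma fit) of the measured genes of 4 lists, in vivo minus bud and in vitro minus bud. Filled points have an adjusted p under 0.05 and dotted lines are the medians of all probe sets, -0.017 and -0.42. As deposited, 18 of these 26 genes were called lower in vitro and 3 higher, against 40.5% and 20.4% of all probe sets. Fewer were called lower under the other scalings.

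Of 25 genes of cytosolic glycolysis, which makes the pyruvate, 9 were measured. In vitro 5 fell and none was called higher against bud (median -3.72), when 40.5% of all probe sets were called lower and 20.4% higher. The 5 were the pyruvate kinase genes AT5G08570, AT5G63680 and AT5G56350, CTIMC (AT3G55440) for triose phosphate isomerase and GAPC2 (AT1G13440) for glyceraldehyde-3-phosphate dehydrogenase. CTIMC averaged 9453 in vivo, 382 in vitro and 12658 in bud, and its log2 fold in vitro was -5.00 ± 0.31 (SE, adjusted p = 2e-07). These 5 fell also under both other scalings, where 2 further genes rose, the glucose-6-phosphate isomerase gene AT5G42740 and the pyruvate kinase gene AT3G04050. Of all 22746 probe sets, 6216 were called lower and 6806 higher after quantile normalization, and 6115 and 7877 with equal medians. AT5G56350, AT5G42740, AT3G04050 and the pyruvate kinase gene AT4G26390 are named here after their values were seen. AT4G26390 was the only one of the 9 to be called in vivo against bud, where 1.87% of all probe sets were called lower. It had 6.2, 36.0 and 53.7 in vivo, 200.3, 166 and 143 in vitro and 155, 269 and 186 in bud, and its log2 fold was -2.31 (adjusted p = 0.0106). That call was lost without bud replicate 2, and also with an offset of 1 in place of 16.

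The genes most like each of the 3 over the 9 arrays were found by Pearson correlation of log2 values, among 7232 or 7233 bright probe sets with 1 named gene, and the 9 arrays fall into 3 groups, so the points share their group, their array and its scaling. Closest to AT4G17260 were AT3G12290, AT5G36160, AT3G62220, AT5G19370 and AT4G22720, with r of 0.999 to 0.997. AT3G12290 averaged 3931 in vivo, 180 in vitro and 3690 in bud. Closest to PDC2 were AMY1 (AT4G25000), an alpha-amylase, then AT3G29170, AT4G34180, AT4G05150 and AT1G19210, with r of 0.977 to 0.966. AMY1 averaged 272 in vivo, 42.8 in vitro and 201 in bud. Closest to HRA1 were AT1G71170, the ATP sulfurylase gene APS3, AT3G58600, AT2G04400 and AT5G09995, with r of 0.973 to 0.942. AT1G71170 averaged 324 in vivo, 155 in vitro and 505 in bud. Between the 3 genes themselves r was 0.82 for PDC2 and AT4G17260, 0.68 for PDC2 and HRA1 and 0.73 for AT4G17260 and HRA1.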

How the data were processed

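Per the labels, polysomes were separated on 20% to 60% sucrose gradients and pulled down through the tag, and the mRNA was amplified and hybridised to Affymetrix arrays. Per the submitters' processing notes, MAS5 gave the deposited intensity values, 1 per probe set and array; its version and the genome build are not given in the sources used here. Trimmed by 2% at each end, every array averaged 500. Of 22810 probe sets, 64 controls were left out; 13513 of the rest had 1 named gene. Detection calls and probe sequences were not used here, so cross-hybridisation between related genes was not tested.

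Log2(signal + 16) was fitted over all 9 arrays in limma 3.58.1 (R 4.3.3), 1 mean per group, with Benjamini-Hochberg adjustment over all 22746 probe sets and no dim filter. The fit was tested on simulated data with a common spread for all probe sets and changes planted in a few bright ones. That test does not cover dim genes or shifts of array medians. The number of arrays limits precision. Members and lists were chosen with earlier results of these data known; lists came from general knowledge, and list genes are counted, not tested as sets. Named were the 3 genes, called genes of the pathway lists, up to 4 per glycolysis or marker list, and the 5 probe sets most alike per gene. Over all probe sets, replicate numbers shared no deviations (correlations between same-numbered arrays -0.046 to 0.073), although PDC2 was lowest in replicate 3 of every group.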

Additional observations from a re-analysis of the deposited data

How the results depend on the processing

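Of 17 or 18 alternatives per comparison, AT4G17260 was called in all 18 in vitro against bud (log2 folds -3.78 to -2.44) and in all 18 in vivo against in vitro (2.61 to 3.92), and in none of 18 in vivo against bud (0.079 to 0.21). PDC2 was called in 16 of 18 in vitro against bud and in 16 of 18 in vivo against in vitro, and HRA1 in 15 of 17 in vitro against bud; HRA1 gave no value under the dim filter. The calls were lost after quantile normalization (PDC2 -0.63 in vitro against bud and 0.96 in vivo against in vitro, HRA1 -0.80 in vitro against bud) and equal array medians (-0.69, 1.03 and -0.55 in the same order). Signs turned for uncalled folds: HRA1 in vivo against in vitro with equal medians (-0.083), and PDC2 in vivo against bud without bud replicate 3 (-0.031; with single arrays left out -0.031 to 0.72). Called PDC2 folds with single arrays left out were -2.16 to -1.37 in vitro against bud and 1.68 to 2.54 in vivo against in vitro, the weakest of both without in vitro replicate 3.

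Called probe sets in vivo against bud numbered 915, and 579 with an offset of 1, 1378 with the 2 groups alone, 2183 with array weights and 541 to 1292 with single arrays left out (568, 578 and 585 without in vivo replicates 1, 2 and 3, 548 and 541 without bud replicates 2 and 3). Listed genes called also moved. Induced by low oxygen: higher in vivo than in vitro 8, and 3 (quantile) or 5 (equal medians); lower in vitro than bud 9, and 5 (quantile); lower in vivo than bud 2, and 0 (offset of 1), 1 (quantile, equal medians, dim filter, replicate block) or 0 to 2 (single arrays left out, 0 without in vivo replicate 1 or any 1 bud array, 1 without in vivo replicate 2 or 3); higher in vivo than bud 0, and 1 (array weights). Pyruvate dehydrogenase and bypass: higher in vivo than in vitro 6, and 3 (both scalings); lower in vitro than bud 6, and 3 (quantile) or 2 (equal medians). Glycolysis: higher in vitro than bud 0, and 2 (both scalings) or 0 to 1 (single arrays left out, 1 without in vivo replicate 2 or in vitro replicate 1 or 2); lower in vivo than bud 1, and 0 (offset of 1) or 0 to 1 (single arrays left out, 0 without bud replicate 2); lower in vivo than in vitro 2, and 1 (offsets of 1 and 64, dim filter, 2 groups alone, replicate block, array weights) or 1 to 2 (single arrays left out, 2 only without in vivo replicate 2 or in vitro replicate 2). The cause was not tested for these changes.

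Over all probe sets, the replicate numbers did not pair the samples. With a replicate block, PDC2 was called in vitro against bud (adjusted p = 0.000902) and in vivo against in vitro (adjusted p = 0.000341), the calls of AT4G17260 and HRA1 were unchanged in side, and the called probe sets in vivo against bud came to 784.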
